A study of Rattus norvegicus with 33 samples.

Results

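The nuclear genes that encode the subunits of the mitochondrial respiratory chain and ATP synthase were followed through 6 stages of rat mammary gland development. The members were all genes with a single-symbol probe set whose symbol begins with Ndufa, Ndufb, Ndufc, Ndufs, Ndufv, Uqcr, Cox4i, Cox5, Cox6, Cox7, Cox8 or Atp5, or is Sdha, Sdhb, Sdhc, Sdhd, Cyc1 or Cycs. Assembly factors named Ndufaf were left out. This gave 93 members among the 18166 genes with a single symbol on the array, each represented by its probe set of highest mean over the 33 arrays. Of these, 79 exceeded a log2 value of 7.65, the median of the single-symbol probe sets, on at least 3 arrays and were tested among 10986 genes. The other 14 fell below that filter and are described at the end. By symbol, 16 of the 93 are processed copies or pseudogene-like relatives of a subunit gene, and 5 of these were among the 79.

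Oxidative phosphorylation passes electrons from NADH (complex I, NADH dehydrogenase) and succinate (complex II, succinate dehydrogenase) through complex III (the cytochrome bc1 complex) and cytochrome c to complex IV (cytochrome c oxidase). The proton gradient this builds across the inner mitochondrial membrane drives complex V, the ATP synthase. Nearly all of the subunits are encoded in the nucleus and imported, and a small core is encoded in mitochondrial DNA. Milk synthesis is an energy-demanding state of the gland, whereas the resting gland is mostly white fat with a sparse epithelial tree.

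RNA came from the fifth caudal mammary glands of both sides of female Sprague-Dawley rats, an outbred strain, that served as vehicle controls in a toxicology study and all received olive oil by gavage. The groups were pre-pubertal rats at postnatal day 21 (10 arrays), peri-pubertal rats at day 42 (5 arrays) and pubertal rats at day 63 (5 arrays). Lactating rats were at lactation day 28, which the labels call the end of lactation, and postnatal day 146 (3 arrays). The adult groups at day 181 were parous rats (5 arrays) and age-matched nulliparous rats (5 arrays). All rats of a stage were killed on the same day without regard to the estrous cycle. The series record gives 10 pre-pubertal animals and the sample notes 5 per stage, so that p-values involving this group are too small if its arrays share animals.

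The labels name 3 batches. Batch 1 held 18 arrays of all stages but lactation, batch 2 held 11 arrays including all 3 lactation arrays, and batch 3 held 2 parous and 2 nulliparous arrays. All of batch 3 was extracted with a Zymo kit, which the labels say was used for some of the fattier adult glands, and all other arrays with a Promega kit, so that batch 3 and kit cannot be told apart. The glands carried the markers of their tissue: the casein gene Csn3 lay between 12.61 and 13.71 from day 42 on, against 5.46 to 7.84 at day 21, and Adipoq, an adipocyte hormone, lay between 10.92 and 13.43 on all arrays. The mean of 9 skeletal muscle genes exceeded 9 on 5 arrays, namely pre-pubertal replicate 10, peri-pubertal replicates 1 and 4, lactation replicate 3 and nulliparous replicate 5. Muscle fibres are rich in mitochondria, so results below are also given without these arrays where the call changed. In whole-gland RNA, fewer cells of a type and less RNA per cell cannot be told apart.

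The largest differences among the members lay between batches, not stages. The mean of the 79 members was 10.86 to 11.10 on the 4 arrays of batch 3, against 9.49 to 9.93 in batch 1. In batch 2 it was 9.33 to 9.76. In one linear model with stage and batch as terms, 71 of 79 members differed between batch 3 and batch 1 (limma, adjusted p under 0.05), 70 of them higher and 1 lower, when 77.4% of all genes tested differed (33% higher, 44.4% lower). The median log2 difference of the members was 1.23, against -0.17 over all genes tested. The filter needed high values on only 3 arrays, and batch 3 held 4. A gene could thus enter the test through batch 3 alone, and its difference was then bound to be positive. This held for Ndufa2, a complex I member, with 10.78 to 11.33 in batch 3 and at most 7.56 on the other arrays. Its difference of 3.91 ± 0.17 counts among the 70 and in the median. Atp5me, subunit e of the ATP synthase membrane part, differed most, by 4.63 ± 0.17 (SE, 24.7-fold). Ndufs6, a zinc-binding accessory subunit of complex I, followed with 4.42 ± 0.13 (21.4-fold). Ndufs4, another accessory subunit of complex I, was the member that was lower, with a log2 difference of -0.51 ± 0.10.

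All 5 complexes shared this shift. The mean of the 36 complex I members was 10.91 to 11.17 in batch 3 and 9.31 to 9.83 in batch 1, and that of the 16 complex V members was 10.96 to 11.10 in batch 3 and 9.53 to 10.05 in batch 1. The 8 members that did not pass were Atp5f1b, Atp5f1d, Atp5hl1, Atp5pd, Cox4i2, Ndufc2, Ndufs7 and Ndufv1, with log2 differences between -0.25 and 0.20. Some lists of genes outside the members moved as well, and others did not. The cytosolic ribosomal protein genes had a median difference of 1.13, the mitochondrial ribosomal protein genes 1.17 and the oxidative phosphorylation assembly factors 1.02, whereas the 3 measured mitochondrially encoded oxidase genes COX1, COX2 and COX3 had -0.42. Mitochondrial import and carrier genes and fatty acid oxidation genes each had 0.72. Citric acid cycle genes had 0.13 (5 called higher, 4 lower) and regulators of mitochondrial biogenesis 0.03 (7 higher, 5 lower). Glycolysis genes had -0.33 (2 higher, 4 lower). Among cell type markers in the same contrast, the 9 skeletal muscle genes had a median of 0.96, with 9 positive and 2 called, both higher. White adipocyte markers had a median of -0.46 (3 called higher, 7 lower), and the 4 basal epithelial markers tested had -1.14 (1 higher, 2 lower). Luminal markers had -0.22 (3 higher, 5 lower). Their part in the members' shift was not tested.

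**Figure D1:**
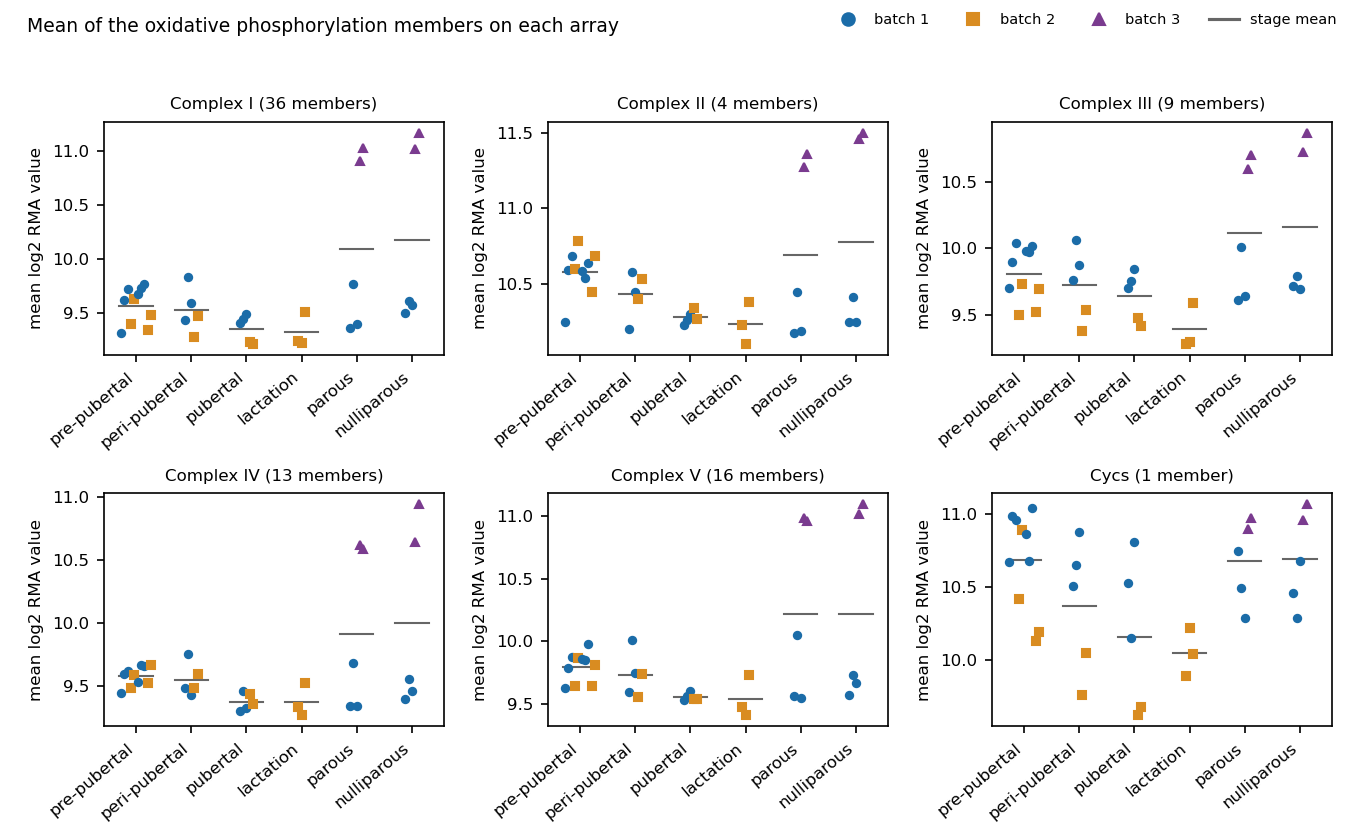
Mean deposited log2 value of the members of each complex on each of the 33 arrays, by stage, with batches 1, 2 and 3 as circles, squares and triangles and the stage mean as a line. The 4 arrays of batch 3 stand above all others in complexes I to V, which lifts the plain means of the parous and nulliparous groups.

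Between batch 2 and batch 1, 60 of 79 members differed, 24 higher and 36 lower, when 56.6% of all genes tested did (21.4% higher, 35.2% lower). Atp5me was again the highest, at 1.84 ± 0.12, and Ndufb6, a membrane-arm subunit of complex I, the lowest, at -2.23 ± 0.11. The absolute batch differences of the members had a median of 1.23 for batch 3 and 0.45 for batch 2. Over the 6 stages, the batch-adjusted estimates of a member spanned a median of 0.40 on the log2 scale, against 0.54 for all genes tested. The absolute batch 3 difference exceeded this span in 61 of 79 members (77.2%), against 55.7% of all genes, and the absolute batch 2 difference did so in 39 members (49.4%), against 22.8% of all genes. All stage differences below therefore come from the model with batch as a term, and plain means of the 2 adult groups mix 2 levels.

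**Figure D2:**
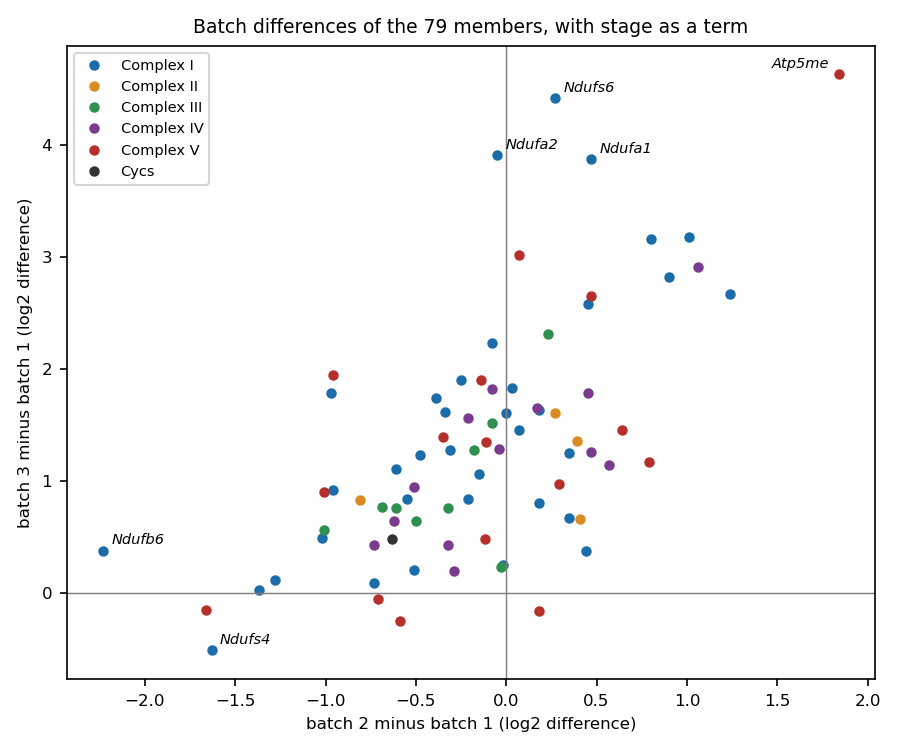
Log2 difference of each of the 79 members between batch 2 and batch 1 (horizontal axis) and between batch 3 and batch 1 (vertical axis), estimated with stage as a term and coloured by complex. Most members lie above 0 on the vertical axis, and they scatter to both sides on the horizontal axis, between Ndufb6 at -2.23 and Atp5me at 1.84.

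Across all 6 stages, an F test on the same model called 41 of 79 members (51.9%), below the 65.9% of all genes tested that it called. With members grouped by symbol, which puts Ndufa4 with complex I, it called 15 of 36 members of complex I, 3 of 4 of complex II, 4 of 9 of complex III, 7 of 13 of complex IV, 11 of 16 of complex V, and Cycs, which encodes cytochrome c. Cox4i2, the alternative isoform of the first nuclear subunit of cytochrome c oxidase, had the smallest adjusted p (5.79e-08). With batch removed, its estimate relative to day 21 was -0.34 at day 42, -0.74 at day 63, -0.65 in lactation, -0.74 in parous and -0.83 in nulliparous glands. Atp5if1, the inhibitory factor that blocks ATP hydrolysis by the synthase, came next (adjusted p 7.3e-07) and stood highest in lactation, 0.92 above day 21. Other members hardly varied: Cox7c, a small oxidase subunit, spanned 0.10 over the 6 stages and Ndufs3, a core subunit of complex I, spanned 0.15. Of the 79 members, 24 were called in at least 1 of the 6 comparisons between stages, 18 by the F test only and 37 by neither.

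**Figure D3:**
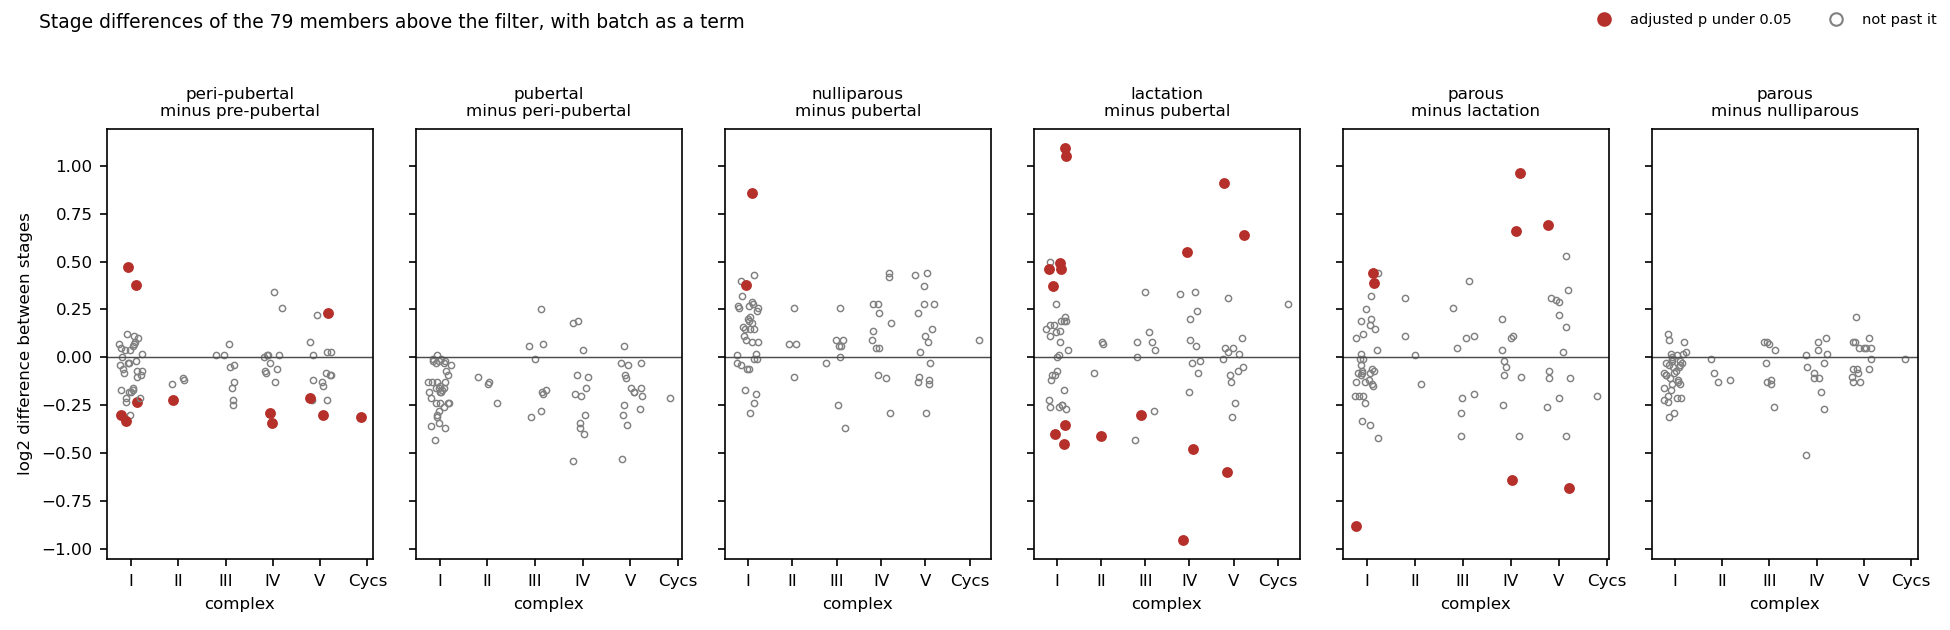
Log2 difference of each of the 79 tested members in the 6 comparisons, arranged by complex, with filled points for an adjusted p under 0.05 and open points for the rest. The called members of lactation minus pubertal lie on both sides of 0, from -0.95 to 1.09, and neither pubertal minus peri-pubertal nor parous minus nulliparous has a filled point.

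Peri-pubertal glands were first compared with pre-pubertal glands. Of the 79 members, 12 were called, 3 higher and 9 lower, when 32.3% of all genes tested were called (17.1% higher, 15.2% lower). The median member differed by -0.07, and the median of all genes was 0.00. In complex I, Ndufs6 rose by 0.38 ± 0.11 (SE, adjusted p 0.0105) and its copy Ndufs6-ps1 by 0.47 ± 0.13 (adjusted p 0.00612). Ndufs6-ps1 is by symbol a copy of Ndufs6, so that the same transcripts may have been measured by both. Ndufb3 and Ndufb11, accessory subunits of the membrane arm, fell by 0.33 ± 0.10 and 0.23 ± 0.08. Ndufs7, an iron-sulphur subunit next to the quinone site, fell by 0.30 ± 0.10.

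In complex II, Sdha, the flavoprotein subunit that also works in the citric acid cycle, fell by 0.22 ± 0.08, whereas the differences of Sdhb, Sdhc and Sdhd lay between -0.14 and -0.11 and did not pass. No member of complex III passed, and Cyc1, which encodes cytochrome c1, differed by -0.22 ± 0.14 (adjusted p 0.253). Cycs fell by 0.31 ± 0.12 (adjusted p 0.0415). Both isoforms of oxidase subunit 4 fell. Cox4i1, the ubiquitous form, had values of 11.07, 10.95, 10.82, 10.96 and 11.06 in peri-pubertal glands, against 11.09 to 11.45 with a median of 11.22 in pre-pubertal glands. The groups did not overlap, which held for 5.01% of all genes tested and for no other member. Its difference was -0.29 ± 0.07 (adjusted p 0.00238).

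Cox4i2 had 7.94, 8.12, 7.92, 7.80 and 7.50 in peri-pubertal glands, against 7.86 to 8.48 with a median of 8.17 in pre-pubertal glands. These ranges overlapped, and the difference was -0.34 ± 0.09 (adjusted p 0.00551). In complex V, Atp5if1 rose by 0.23 ± 0.08 (adjusted p 0.0269), and Atp5mc3, 1 of the genes for the proton-carrying c subunit, and Atp5pb, the stalk subunit b, fell by 0.30 ± 0.12 and 0.21 ± 0.08. Atp5mc1, another gene for the c subunit, differed by -0.22 ± 0.13 (adjusted p 0.196). All 12 called members had the same sign within batch 1 and within batch 2, on the arrays that gave the calls, so this is not independent evidence. Fewer members were called in either batch alone, as given in the closing section.

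Without the 5 arrays of high muscle content, 5 members were called, of which 4 were shared: Cox4i1 (-0.29), Cox4i2 (-0.38), Ndufs6 (0.45) and Ndufs6-ps1 (0.63). The fifth was Cox6b2 (0.52). Sdha then differed by -0.13 (adjusted p 0.341) and Ndufs7 by -0.11 (adjusted p 0.521). Leaving out peri-pubertal replicate 4 alone left 5 calls, and the calls of Atp5if1, Atp5mc3, Atp5pb, Cycs, Ndufs7 and Sdha were each lost without at least 3 different single arrays, while no member was called with the mean of the luminal epithelial markers as a covariate. Cell type markers moved in the same comparison: all 12 luminal markers tested rose (median 1.58), 13 of 15 white adipocyte markers fell (median -0.65), 5 of 5 brown adipocyte markers tested fell (median -0.61), and 10 of 11 T cell and 8 of 8 B cell markers fell. Summed over its list, the mean luminal value was 9.41 to 10.11 in peri-pubertal and 6.49 to 9.58 in pre-pubertal glands, and the mean white adipocyte value was 10.57 to 11.01 in peri-pubertal and 10.99 to 11.65 in pre-pubertal glands. Ucp1, the defining gene of brown fat, was at 4.58 to 5.38 in peri-pubertal and 4.79 to 5.30 in pre-pubertal glands, among the low values of the array.

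Among other mitochondrial genes, 3 of 11 citric acid cycle genes were called in this comparison and all 3 fell, with Cs, citrate synthase, at -0.44 ± 0.09 (adjusted p 3.4e-04). Of 35 assembly factors, 2 rose and 4 fell, among them Sdhaf1, which helps assemble complex II (-0.61 ± 0.10), Cox18, which inserts an oxidase subunit into the membrane (-0.27 ± 0.06), and Timmdc1, which helps assemble complex I (0.27 ± 0.07). Of 16 regulators of mitochondrial biogenesis, 1 rose and 2 fell: Ppargc1b, a coactivator, by 0.63 ± 0.11, and Esrrg, an orphan nuclear receptor of oxidative metabolism, by 0.47 ± 0.11. Neither Nrf1 nor Gabpa, whose products bind many respiratory chain promoters, passed (-0.14 ± 0.11 and -0.05 ± 0.07).

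Between pubertal and peri-pubertal glands, 0 of 79 members were called by limma, when 1.22% of all genes tested were (0.719% higher, 0.501% lower). At an unadjusted p under 0.05 there were 22, 2 higher and 20 lower, when 14.8% of all genes passed that mark. The differences ran from -0.54 to 0.25 with a median of -0.16, and 8 of 79 were positive. Over all genes tested the median was -0.01, and 5304 of 10986 were positive. The smallest adjusted p was that of Cox4i2, with 7.65, 7.65, 7.32, 7.56 and 7.11 in pubertal glands, against 7.94, 8.12, 7.92, 7.80 and 7.50 in peri-pubertal glands. The pubertal values were lower on the whole but overlapped, and the difference was -0.40 ± 0.11 (adjusted p 0.0591). Atp5mc1 differed by -0.53 ± 0.15 (adjusted p 0.0633), Atp5mc3 by -0.35 ± 0.13 (adjusted p 0.195) and Cox8a, the common isoform of oxidase subunit 8, by -0.34 ± 0.11 (adjusted p 0.111). Values did not overlap between the groups for 1 of 79 members, when this held for 2.26% of all genes tested. That member was Ndufa8, an accessory subunit of complex I, singled out after its values were seen (-0.18 ± 0.09, adjusted p 0.318). The muscle list had a mean of 6.72 to 6.77 in pubertal glands and 6.62 to 9.76 in peri-pubertal glands. Without the arrays of high muscle content, 3 members were called, all lower: Atp5mc1 (-0.69, adjusted p 0.0205), Cox8a (-0.49, adjusted p 0.0214) and Atp5f1d, the delta subunit of the synthase (-0.44, adjusted p 0.0436). Leaving out peri-pubertal replicate 1 alone gave 4 calls, and pubertal replicate 4 alone gave 1.

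Lactating glands at day 146 were compared with pubertal glands at day 63, so that lactation and age cannot be told apart. Of 79 members, 17 were called, 9 higher and 8 lower, when 40.7% of all genes tested were called (23.8% higher, 16.9% lower). The median member differed by 0.04 and the median gene by 0.06. Lactation arrays exist only in batch 2, where 3 of them stand beside 2 pubertal ones. The 3 pubertal arrays of batch 1 enter through the batch term, which also draws on the pre-pubertal and peri-pubertal glands. In batch 2 alone the rises of Ndufa7 and Ndufb7 were no longer called. The falls of Atp5hl1, Cox7b, Ndufa4, Ndufs7, Sdha and Uqcrc2 were also lost there, so that only those of Cox6b2 and Ndufv2 were kept. The deposited values of 16 members did not overlap between the groups, which held for 35.9% of all genes tested. This takes no account of batch, and 10 of the 16 were called.

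Complex I held the largest rises. Ndufa1, a small membrane-arm subunit needed for assembly of the complex, had 8.63, 9.08 and 8.94 in lactating glands, against 7.23, 7.38, 7.26, 7.78 and 7.92 in pubertal glands. Every lactation array lay above every pubertal one, and the difference was 1.09 ± 0.14 (2.12-fold, adjusted p 4.9e-07). The pubertal values of Ndufa1 lay around the filter level of 7.65. Ndufv3, an accessory subunit of the NADH-oxidising module, had 9.40, 9.76 and 10.12 in lactating glands, against 9.71, 9.82, 9.62, 8.67 and 8.80 in pubertal glands. The ranges overlapped across batches, but the 2 low pubertal values were those of batch 2, to which the lactation arrays belong, and the difference with batch as a term was 1.05 ± 0.20 (2.07-fold, adjusted p 1.4e-04). A second probe set of Ndufv3 differed by -0.06 ± 0.17. On the probe set used, Ndufv3 was also higher in nulliparous than in pubertal glands, by 0.86 ± 0.18. It did not pass between parous and lactating glands (-0.42 ± 0.23).

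Ndufa7, Ndufb11, Ndufb7 and Ndufb3, further accessory subunits, rose by 0.37 to 0.49. Ndufb11 was also called higher in nulliparous than in pubertal glands (0.38). A second probe set of Ndufb3 differed by 0.02 ± 0.12, against 0.37 ± 0.14 for the one used, and the call of Ndufb3 was lost without pubertal replicate 2, 4 or 5 or lactation replicate 1 or 3. The calls of Ndufa7 and Ndufb7 were lost without lactation replicate 3, whose muscle list mean was 9.78. Among members grouped with complex I by symbol, 3 fell. Ndufv2, a core iron-sulphur subunit of the NADH module, had 10.16, 9.97 and 10.42 in lactating glands, against 10.99, 11.11, 11.39, 10.58 and 10.64 in pubertal glands. All lactation values were lower, and the difference was -0.45 ± 0.11 (adjusted p 0.00181), a call lost with only these groups in the fit. Ndufa4, grouped here by its symbol although its protein is now assigned to complex IV, fell by 0.40 ± 0.12 (adjusted p 0.00852). Ndufs7 fell by 0.35 ± 0.14 with an adjusted p of 0.0487, a call that was lost when any one of the lactation and pubertal arrays other than pubertal replicate 3 was left out. Ndufa4l2, known as a hypoxia-induced relative of Ndufa4, differed by -0.25 ± 0.20 (adjusted p 0.328).

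In complex II, Sdha fell: it had 10.59, 10.21 and 10.61 in lactating glands, against 10.49, 10.43, 10.52, 10.88 and 10.88 in pubertal glands. The values overlapped across batches, with the 2 highest pubertal values again from batch 2, and the difference was -0.41 ± 0.11 (1.33-fold lower, adjusted p 0.00381). The call was lost without lactation replicate 2. The other 3 subunits had 0.07 ± 0.12 (Sdhb), 0.08 ± 0.14 (Sdhc) and -0.08 ± 0.12 (Sdhd). In complex III, Uqcrc2, a core protein of the matrix side, had 10.92, 10.81 and 11.00 in lactating glands, against 11.05, 11.28, 11.39, 11.17 and 11.25 in pubertal glands. All lactation values were lower, and the difference was -0.30 ± 0.09 (adjusted p 0.0126), also lost without lactation replicate 2. Cyc1 differed by 0.34 ± 0.20 (adjusted p 0.172) and Cycs by 0.28 ± 0.17 (adjusted p 0.193).

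In complex IV, Cox5a, a structural subunit of the matrix side, had 12.24, 12.12 and 12.53 in lactating glands, against 12.11, 12.46, 12.39, 11.83 and 11.80 in pubertal glands, an overlap. With batch as a term it rose by 0.55 ± 0.11 (1.47-fold, adjusted p 2.82e-04), and a different probe set of the gene by 0.43 ± 0.11. Cox6b2, an isoform known from testis, had 6.53, 6.11 and 6.41 in lactating glands, against 7.18, 7.53, 7.39, 7.26 and 7.40 in pubertal glands. The groups were far apart, and it fell by 0.95 ± 0.20 (1.94-fold, adjusted p 3.63e-04), though both lie below the filter level. Its common counterpart Cox6b1 differed by 0.33 ± 0.17 (adjusted p 0.115). Cox7b, a small oxidase subunit, fell by 0.48 ± 0.17 (adjusted p 0.0269), a call lost without pubertal replicate 3, lactation replicate 1 or lactation replicate 2. Cox4i1 (-0.02 ± 0.10), Cox4i2 (0.09 ± 0.13), Cox6a1 (0.24 ± 0.15), Cox7a2l (-0.18 ± 0.10) and Cox8a (-0.03 ± 0.13) did not pass.

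In complex V, Atp5if1 had 10.50, 10.60 and 10.79 in lactating glands, against 9.09, 9.24, 9.27, 10.09 and 9.92 in pubertal glands. Every lactation array was above every pubertal one, and the difference was 0.64 ± 0.11 (1.56-fold, adjusted p 5.04e-05). Atp5mf, subunit f of the membrane part, rose by 0.91 ± 0.19 (1.87-fold, adjusted p 3.61e-04), with 8.47, 8.31 and 8.55 in lactating glands, against 8.33, 8.60, 8.63, 7.60 and 7.56 in pubertal glands. The rise is seen against the 2 pubertal arrays of batch 2, whereas the values overlap with those of batch 1. Atp5hl1, by symbol a copy of the gene for subunit d whose probes may also measure the parent gene, had 6.95, 7.12 and 7.13 in lactating glands, against 7.53, 7.70, 7.51, 7.27 and 7.76 in pubertal glands. All lactation values and 3 of the 5 pubertal ones were below the filter level. It fell by 0.60 ± 0.16, a call lost in batch 2 alone and with only these 2 groups in the fit. The c subunit genes Atp5mc1 and Atp5mc3 had -0.01 ± 0.18 and 0.10 ± 0.17.

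**Figure D4:**
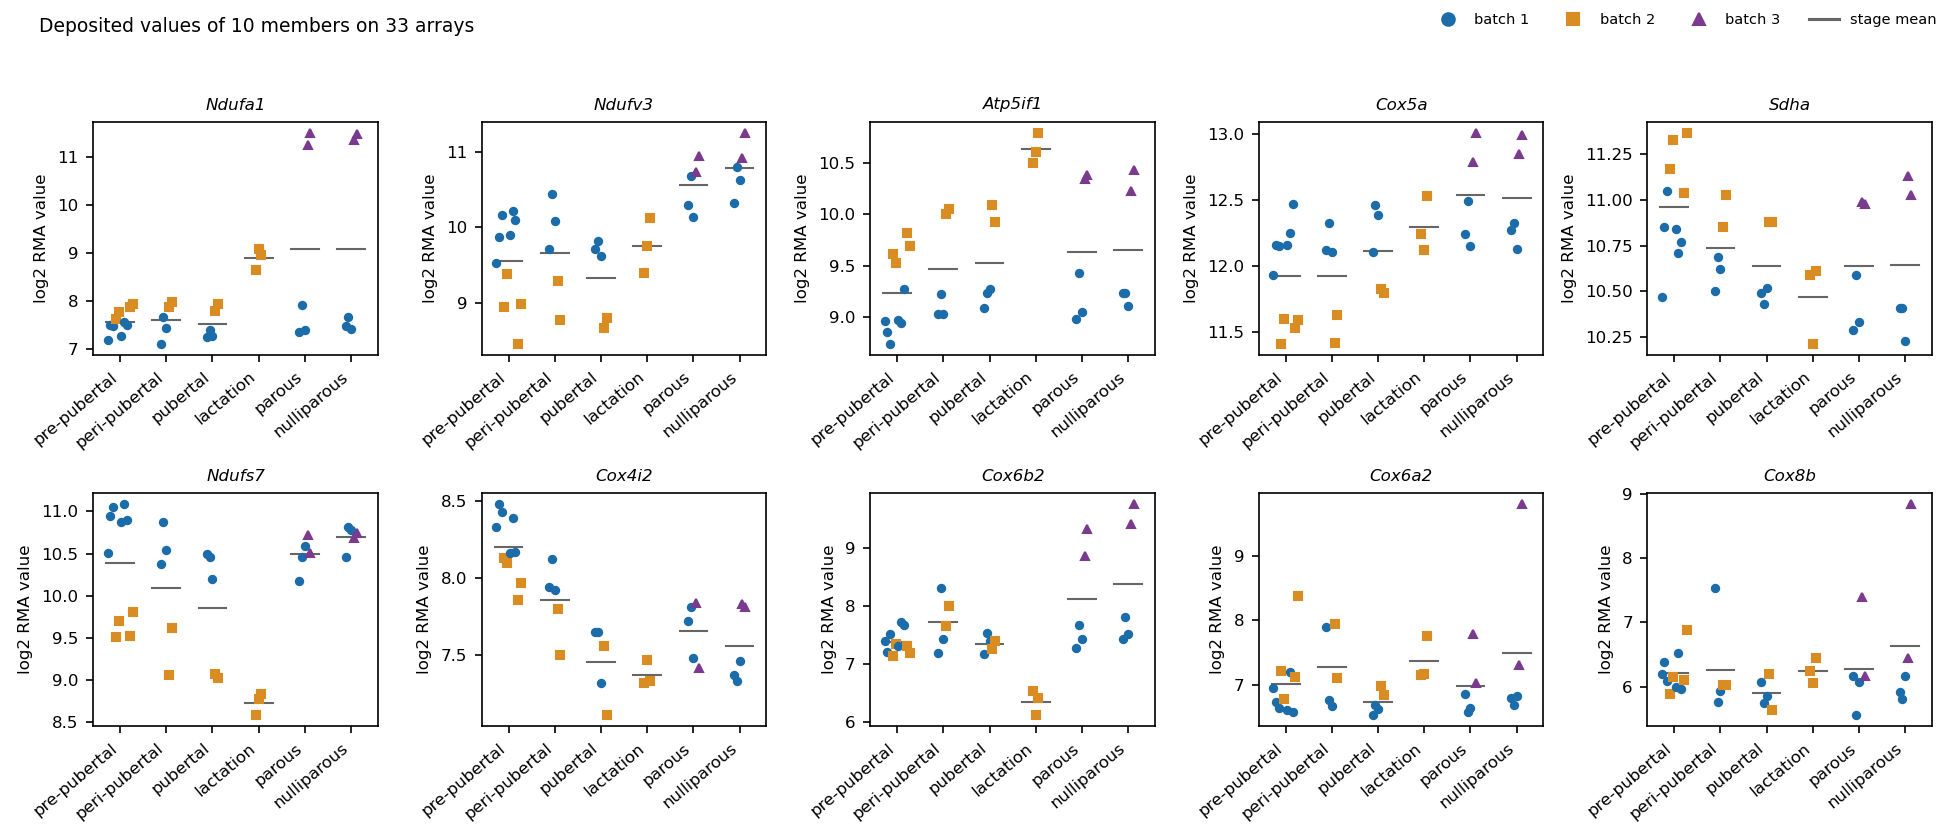
Deposited log2 values of 10 members on 33 arrays, by stage and batch (circles, squares and triangles for batches 1, 2 and 3), with the stage mean as a line. Ndufa1 and Atp5if1 are higher in lactation (squares) than on the other squares, Cox6b2 and Ndufs7 are lower, Cox4i2 is highest in the youngest glands, and Cox6a2 and Cox8b are high on single arrays such as nulliparous replicate 5 (9.81 and 8.85).

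The promoters of 2 members that rose and 2 that fell in lactation are shown, from RefSeq (GRCr8), as the 250 bases before and 50 after the annotated start, 5' to 3' on the gene's strand. Capitals mark matches, on either strand, to the consensus of NRF1, CCGGAAG (of ETS factors such as GABP), GCCATNTT (of YY1) or TNAAGGTCA (of estrogen-related receptors). Those of Ndufa1 and Uqcrc2 are ETS matches, that of Ndufv3 is an NRF1 match, and Sdha has NRF1 matches and, as the last, 1 YY1 match.
Ndufa1, chrX:121293506-121293805, minus strand: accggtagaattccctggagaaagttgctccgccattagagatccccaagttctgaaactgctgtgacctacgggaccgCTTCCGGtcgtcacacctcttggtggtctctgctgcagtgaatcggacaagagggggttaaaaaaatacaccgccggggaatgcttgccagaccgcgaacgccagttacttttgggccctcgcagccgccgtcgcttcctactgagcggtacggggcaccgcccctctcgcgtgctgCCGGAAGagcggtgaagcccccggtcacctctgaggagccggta
Ndufv3, chr20:9613536-9613835, plus strand: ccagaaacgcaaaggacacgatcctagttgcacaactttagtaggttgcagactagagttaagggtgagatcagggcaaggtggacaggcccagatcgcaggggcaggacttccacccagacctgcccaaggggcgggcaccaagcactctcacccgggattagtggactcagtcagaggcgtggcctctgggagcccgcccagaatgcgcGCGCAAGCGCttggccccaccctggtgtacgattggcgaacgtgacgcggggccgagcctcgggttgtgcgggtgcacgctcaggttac
Sdha, chr1:30764303-30764602, plus strand: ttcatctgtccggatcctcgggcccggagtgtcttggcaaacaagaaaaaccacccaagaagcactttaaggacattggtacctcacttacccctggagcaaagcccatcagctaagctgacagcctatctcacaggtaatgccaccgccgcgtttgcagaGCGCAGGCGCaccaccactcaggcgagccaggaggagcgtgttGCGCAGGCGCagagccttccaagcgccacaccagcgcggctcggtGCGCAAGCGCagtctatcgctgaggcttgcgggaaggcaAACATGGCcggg
Uqcrc2, chr1:184598990-184599289, plus strand: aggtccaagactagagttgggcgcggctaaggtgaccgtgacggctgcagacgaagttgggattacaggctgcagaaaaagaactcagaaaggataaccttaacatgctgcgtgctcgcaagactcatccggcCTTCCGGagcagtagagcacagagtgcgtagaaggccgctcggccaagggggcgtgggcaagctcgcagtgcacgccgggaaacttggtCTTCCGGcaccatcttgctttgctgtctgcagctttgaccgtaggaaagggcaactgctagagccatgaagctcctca

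Of the 93 members, 75 had such a window, 65 of them among the 74 tested members that are not copies. In these 65 promoters the NRF1 motif was found in 12 (18.5%), against 4.71% of all 27457 promoters and 9.59% of those of the genes tested. The ETS motif was in 19 (29.2%), against 9.22% of all promoters and 17.8% of those tested, and the YY1 motif in 26 (40%), against 7.36% of all promoters and 10.3% of those tested. The motif of estrogen-related receptors was in 3 (4.62%), against 1.15% and 0.521%. At least 1 of the 4 was present in 43 of 65 (66.2%), against 32.3% of genes tested, and no match overlapped one to a different motif. At least 1 motif was present in 5 of 9 members that rose, 4 of 7 that fell and 34 of 49 that were not called. A match describes letters in the window, not a bound site.

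Genes that build or serve the respiratory chain were described from lists of their own. Of 35 assembly factors, 16 were called and 15 of them rose, with a list median of 0.25, among them Cox19, a copper-delivery factor for the oxidase (0.88 ± 0.10), Pet100, an oxidase assembly factor (1.06 ± 0.18), and Atpaf1, which assembles the synthase (0.60 ± 0.11). Of 68 mitochondrial ribosomal protein genes, 29 rose and 0 fell (limma; median 0.27), whereas of 51 cytosolic ones 1 rose and 15 fell (median -0.17). Regulators of biogenesis changed in both directions: Polg, the mitochondrial DNA polymerase, rose by 1.01 ± 0.10, Tfb2m, a mitochondrial transcription factor, by 0.38 ± 0.14, and Esrrg fell by 1.12 ± 0.15, while Nrf1 (0.19 ± 0.15), Gabpa (0.00 ± 0.10) and Tfam (0.14 ± 0.08) did not pass. Of 17 import and carrier genes, 5 rose and 2 fell, with Timm23, a core of the inner-membrane translocase, at 0.82 ± 0.11, Vdac2, an outer-membrane channel, at 0.67 ± 0.13 and Slc25a4, the ADP/ATP carrier of muscle and heart, at -1.20 ± 0.13. COX3, encoded in mitochondrial DNA, differed by -0.11 ± 0.04 (adjusted p 0.0385), with COX1 and COX2 not past the threshold. The call of COX3 was lost without pubertal replicate 3, 4 or 5 or any 1 of the 3 lactation arrays, and that of Tfb2m without pubertal replicate 4 or 5 or lactation replicate 2.

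Marker levels differed in the same comparison. The mean of the luminal markers was 10.50 to 11.16 in lactating and 9.68 to 10.20 in pubertal glands, and 7 of 12 rose. The mean of the white adipocyte markers was 9.57 to 9.84 in lactating and 10.50 to 10.76 in pubertal glands, and 12 of 15 fell. The muscle list mean was 6.74 to 9.78 in lactating and 6.72 to 6.77 in pubertal glands, with 0 of 9 genes called by limma. Of 5 brown adipocyte genes tested, 1 rose and 2 fell: Cidea rose by 2.33 ± 0.25, and Ebf2 and Kcnk3 fell by 1.36 ± 0.22 and 0.62 ± 0.20. Ucp1 was at 4.74 to 5.04 in lactating and 4.77 to 5.02 in pubertal glands. With the luminal mean as a covariate 14 members were called. Without the arrays of high muscle content 18 were, 14 of them shared with the 17, and the split moved to 6 higher and 12 lower. Lactation replicate 1, with a muscle list mean of 8.46, was kept in that fit, here and in the comparison with parous glands. The 3 members lost were Ndufa7, Ndufb3 and Ndufb7, and the 4 gained were Atp5f1b (-0.29, adjusted p 0.0362), Ndufs4 (-0.35, adjusted p 0.049), Uqcr11 (-0.44, adjusted p 0.0212) and Uqcrb (-0.67, adjusted p 0.0256). Centring each array on its median gave 14 higher and 5 lower, with the median of all genes then at 0.15.

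Parous glands at day 181 were compared with lactating glands at day 146, so that age differed as well. The groups share no batch, so the difference rests on batch terms estimated from the other stages. Of 79 members, 8 were called, 5 higher and 3 lower, when 32.9% of all genes tested were (12.1% higher, 20.7% lower). The 8 were all among the 17 of the previous comparison and had the opposite sign there. Both comparisons use the same 3 lactation arrays, so this is not independent evidence.

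In complex I, Ndufa1 fell by 0.88 ± 0.16 (adjusted p 1.06e-04). It had 7.35, 7.91 and 7.38 in the parous glands of batch 1 and 11.24 and 11.50 in those of batch 3, against 8.63, 9.08 and 8.94 in lactating glands. The lactation values thus lay between the 2 parous levels, and without the batch term the difference was 0.20. Ndufv2 rose by 0.39 ± 0.13 and Ndufs7 by 0.44 ± 0.16 (adjusted p 0.0195 and 0.0409). The call of Ndufv2 was lost without lactation replicate 2 or parous replicate 2, and that of Ndufs7 without lactation replicate 1 or 2 or parous replicate 2, 3 or 4. Sdha differed by 0.31 ± 0.13 (adjusted p 0.0602), and no member of complexes II and III passed with all arrays. In complex IV, Cox5a fell by 0.64 ± 0.13 (adjusted p 4.28e-04), with 12.24, 12.49 and 12.15 in the parous glands of batch 1 and 12.79 and 13.01 in those of batch 3, against 12.24, 12.12 and 12.53 in lactating glands. These values overlapped, and without the batch term the difference was 0.24. Cox7b rose by 0.66 ± 0.20 (adjusted p 0.0119), and Cox6b2 rose by 0.96 ± 0.23 (adjusted p 0.00193). Cox6b2 had 7.28, 7.67, 7.44, 8.86 and 9.34 in parous glands, against 6.53, 6.11 and 6.41 in lactating glands, with no overlap. Non-overlap of the deposited values held for 28 of 79 members and 27.8% of all genes tested. It takes no account of batch, and 6 of the 28 were called.

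In complex V, Atp5if1 had 8.98, 9.43, 9.05, 10.34 and 10.38 in parous glands, against 10.50, 10.60 and 10.79 in lactating glands. All parous values were lower, and the difference was -0.68 ± 0.13 (1.6-fold lower, adjusted p 2.19e-04). Atp5hl1 rose by 0.69 ± 0.18 (adjusted p 0.00404). Atp5mc1 differed by 0.53 ± 0.21 (adjusted p 0.0505). Without the arrays of high muscle content 10 members were called, 7 higher and 3 lower: the 8 above, Atp5mc1 (0.76, adjusted p 0.0154) and Uqcr11, a small complex III subunit (0.57, adjusted p 0.0137, against 0.40 and 0.0656 with all arrays). Beside the members, 11 of 35 assembly factors were called and all 11 fell, with Cox19 at -0.86 ± 0.12, Sco1, a copper chaperone of the oxidase, at -0.76 ± 0.14 and Acad9, a complex I assembly factor, at -0.62 ± 0.14. Of 68 mitochondrial ribosomal protein genes, 1 rose and 26 fell. Polg fell by 0.98 ± 0.12 and Timm23 by 0.93 ± 0.13, while Esrrg rose by 0.93 ± 0.18, Esrrb, a related receptor, by 1.10 ± 0.18, and Slc25a4 by 0.81 ± 0.15. COX3 rose by 0.18 ± 0.05 (adjusted p 0.00401). The luminal mean was 9.41 to 10.05 in parous and 10.50 to 11.16 in lactating glands, and the white adipocyte mean was 9.99 to 10.75 in parous and 9.57 to 9.84 in lactating glands.

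Nulliparous glands at day 181 were compared with pubertal glands at day 63. Of 79 members, 2 were called and both rose, when 4.27% of all genes tested were called (1.88% higher, 2.39% lower). Ndufv3 had 10.33, 10.80, 10.63, 10.92 and 11.26 in nulliparous glands, against 9.71, 9.82, 9.62, 8.67 and 8.80 in pubertal glands. All nulliparous values were higher, and the difference with batch as a term was 0.86 ± 0.18 (1.82-fold, adjusted p 0.00636). Its second probe set differed by 0.17 ± 0.16. Ndufb11 rose by 0.38 ± 0.10 (adjusted p 0.0208). Non-overlap of the deposited values held for 13 of 79 members and 7% of all genes tested. It takes no account of batch, and 2 of the 13 were called. Within batch 1, with 3 arrays in each group, the mean differences were 0.87 for Ndufv3 and 0.41 for Ndufb11. The call of Ndufb11 was lost, leaving 1, without pubertal replicate 3, nulliparous replicate 2 or nulliparous replicate 3. Of the isoforms, Cox6a1 differed by 0.42 ± 0.14 (adjusted p 0.0736), Cox7a2l, a supercomplex factor related to subunit 7, by -0.29 ± 0.09 (adjusted p 0.0879), and Cox4i2 by -0.09 ± 0.12.

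Parous glands were compared with nulliparous glands of the same age. Limma called 0 of 79 members, when 0.0182% of all genes tested were called (0.0091% higher, 0.0091% lower). At an unadjusted p under 0.05 there was 1, Ndufs4 (-0.22 ± 0.10, adjusted p 0.773), when 6.08% of all genes passed that mark. The 79 differences ran from -0.51 to 0.21 with a median of -0.05, and 25 were positive. Over all genes tested the median was 0.00, and 5385 of 10986 were positive. The lowest difference of a member was that of Cox6a2 (-0.51 ± 0.33). Of the members called between lactating and pubertal glands, Atp5if1 had -0.01 ± 0.09, Cox5a 0.02 ± 0.09, Sdha -0.01 ± 0.09, Cox6b2 -0.27 ± 0.16 and Ndufv3 -0.23 ± 0.16. No member had values that did not overlap between the groups, which held for 0.173% of all genes tested.

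The muscle isoforms stood out on single arrays. Cox6a2, the heart and skeletal muscle form of oxidase subunit 6a, had 6.86, 6.57, 6.64, 7.79 and 7.03 in parous glands, against 6.79, 6.69, 6.83, 7.31 and 9.81 in nulliparous glands. One nulliparous array stood far above the rest, and the 2 groups overlapped. In peri-pubertal glands it had 7.89, 6.76, 6.66, 7.94 and 7.10, with the high values on the replicates whose muscle list means were 9.76 and 9.34, and in pre-pubertal glands it ran from 6.58 to 8.37. It was not called in any comparison (F test adjusted p 0.447), and its common counterpart Cox6a1 was not either (F test adjusted p 0.0783). Cox8b, the muscle form of subunit 8, was below the filter, with 7.53 on peri-pubertal replicate 1, 8.85 on nulliparous replicate 5 and 7.40 on parous replicate 4. The muscle list mean of parous replicate 4 was only 6.84. Both that array and nulliparous replicate 5 were of batch 3, which differed from batch 1 by 1.26 ± 0.34 for Cox6a2. Cox7a1 and Cox7a2 were not analysed here.

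The 14 members below the filter were Cox8b, Cox8c and Cox7b2, the last 2 known as testis forms of oxidase subunits, and 11 copies: Atp5mc1l2, Atp5mgl1, Atp5mgl3, Atp5mgl4, Cox6c-ps1, Cox7cl1, Ndufb11b, Ndufb4l1, Ndufb4l3, Ndufb4l4 and Uqcr11l1. Their means over the 33 arrays lay between 3.96 for Cox7b2 and 6.82 for Ndufb4l4. Of the 5 copies above the filter, Ndufs6-ps1 and Atp5hl1 were called as described, and Atp5mc1l1, Ndufa13-ps1 and Uqcr10-ps1 in no comparison. For 6 members the array held more than 1 single-symbol probe set, and the calls of Ndufv3 and Ndufb3 in lactation rest on 1 of them. Atp5mk was called in no comparison on the probe set used. That set differed by 0.28 ± 0.12 between nulliparous and pubertal glands, and its other set by 0.53 ± 0.12. Between parous and lactating glands the 2 sets differed by 0.29 ± 0.15 and 0.70 ± 0.15.

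The 18 members called by the F test but in no comparison were Atp5f1a, Atp5f1b, Atp5f1d, Atp5mc1, Atp5mg, Atp5pd, Cox7a2l, Cox8a, Cyc1, Ndufa4l2, Ndufab1, Ndufb9, Ndufs1, Ndufs4, Sdhc, Sdhd, Uqcr11 and Uqcrq. The 37 called by neither are named by complex. In complex I they were Ndufa11, Ndufa12, Ndufa13-ps1, Ndufa2, Ndufa5, Ndufa6, Ndufa8, Ndufa9, Ndufb10, Ndufb2, Ndufb4, Ndufb5, Ndufb6, Ndufb8, Ndufc1, Ndufc2, Ndufs3, Ndufs5, Ndufs8 and Ndufv1. Complex II held Sdhb. Complex III held Uqcr10-ps1, Uqcrb, Uqcrc1, Uqcrfs1 and Uqcrh. Complex IV held Cox5b, Cox6a1, Cox6a2, Cox6b1, Cox6c and Cox7c. Complex V held Atp5mc1l1, Atp5me, Atp5mk, Atp5pf and Atp5po.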

How the data were processed

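Values deposited by the authors are on a log2 scale and cover 36685 probe sets on each of 33 Affymetrix whole-transcript arrays. They were made with Affymetrix Expression Console and RMA (background correction, normalization between arrays and probe summary), per the submitters' processing notes. Their versions: not given in the sources used here. Precision is set by the number of arrays. Probe sets with 1 symbol in the platform annotation (18511, giving 18166 genes) were used, and 575 with several symbols were left out. No 2 arrays were identical. Stage, batch and kit came from the labels.

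From these values, 1 linear model per gene, with 6 stages and 3 batches (25 residual degrees of freedom), was fitted with limma 3.58.1 in R 4.3.3, with moderated variances and an intensity trend. Tests were two-sided, with Benjamini-Hochberg adjustment over 10986 genes and a threshold of 0.05. "Rose" and "fell" mark genes past it. Differences carry their SE. Replicates are taken as separate animals. The members and lists were chosen with earlier results of these data known. The text names, per comparison and complex, up to 3 called members of smallest adjusted p in each direction, a panel of isoforms, complex II, cytochrome, c subunit and inhibitor genes, members below the filter, and up to 3 called genes of accompanying lists. The code was tested on simulated data. Other settings are given in the closing section. Figures used matplotlib 3.10.9.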

Additional observations from a re-analysis of the deposited data

Results flagged for a closer look

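A Dixon test for 1 value far from its group was run on the displayed members and the muscle list in groups of 4 to 10 arrays. It marked 7 of 120 groups, and chance marks about 1 in 20. Ndufa4 was low on peri-pubertal replicate 1, at 11.25, with the other 4 arrays at 11.69 to 11.79. Cox6a2 was high on pre-pubertal replicate 10, at 8.37, and on nulliparous replicate 5, at 9.81, and Cox8b was high on peri-pubertal replicate 1, at 7.53, and on nulliparous replicate 5, at 8.85. The mean of the skeletal muscle list was high on pre-pubertal replicate 10, at 10.08, and on nulliparous replicate 5, at 10.51. The 5 values of single members lie on arrays whose muscle list mean exceeded 9.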

How the results depend on the processing

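No paired analysis was possible because the replicate numbers only name the arrays. The cause of each change below was not tested unless fewer arrays or a stricter threshold made it. Of the 79 members, 12 were called between peri-pubertal and pre-pubertal glands. This became 0 with no batch term, 22 with array weights, 0 with the luminal mean as a covariate, 3 in batch 1 alone, 0 in batch 2 alone, 5 without the arrays of high muscle content and 4 at an adjusted p under 0.01. Between pubertal and peri-pubertal glands, 0 became 16 with array weights, 1 without batch 3 and 3 without the muscle-rich arrays. Between nulliparous and pubertal glands, 2 became 6 with no batch term, 14 with array weights and 1 at the stricter threshold. Between lactating and pubertal glands, 17 became 4 with no batch term, and 9 both in batch 2 alone and with only the groups compared. Between parous and lactating glands, 8 became 28 with no batch term, 13 after repeated quantile normalization, 37 with only the groups compared, where batch and stage cannot be told apart, and 5 at the stricter threshold. Centring moved the split of that comparison to 3 higher and 7 lower, and repeated quantile normalization to 10 and 3, against 5 and 3. The F test called 22 members with the luminal covariate.

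Leaving out 1 array at a time gave 5 to 15 calls between peri-pubertal and pre-pubertal glands, 0 to 4 between pubertal and peri-pubertal, 1 to 3 between nulliparous and pubertal, 13 to 17 between lactating and pubertal, 6 to 12 between parous and lactating, 0 between parous and nulliparous, and 38 to 52 in the F test. With no batch term the sign turned between lactating and pubertal glands for Ndufb11 (-0.12) and Ndufb7 (-0.12), and between parous and lactating glands for Cox5a (0.24), Ndufa1 (0.20), Cox7a2l (0.47), Sdhc (1.00), Acad9 (0.08) and COX3 (-0.05). With only the groups compared it turned for Sdhc (0.70), Cycs (0.46) and Cyc1 (0.78). Lactation arrays were absent from batch 1, and parous and nulliparous arrays from batch 2, so these comparisons could not be run there.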
